A study of Homo sapiens with 16 samples.

Results

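The CDK inhibitor genes are the 8 genes CDKN1A, CDKN1B, CDKN1C, CDKN2A, CDKN2B, CDKN2C, CDKN2D and CDKN3. They were taken by symbol through the Ensembl identifiers of a table of 43836 genes, and all 8 were in it. RNA-seq of total RNA was available for 16 libraries of KG-1, a human acute myeloid leukemia (AML) cell line of CD34-positive myeloblast-like cells, in 8 conditions with 2 biological replicates each. Cells of every condition carried a lentiviral vector and had been selected with 4 µg/mL puromycin. Control cells carried a non-target shRNA and FOXM1-KD cells a stable shRNA against FOXM1, a forkhead transcription factor of the proliferation programme. Control cells were treated with 0.3% DMSO (the vehicle) for 48 h, with 30 µM MK-2206 (an allosteric AKT inhibitor) for 24 h, or for 48 h with 50 µM STL427944 (a FOXM1 inhibitor), 0.75 µM cytarabine (AraC, a nucleoside analog) or 100 nM venetoclax (a BCL-2 inhibitor). FOXM1-KD cells were treated with DMSO, AraC or venetoclax at the same doses, all for 48 h. MK-2206 was therefore set against a vehicle that acted 24 h longer, and drug and time cannot be told apart in that comparison.

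CDK inhibitors hold the cell cycle by binding cyclin-dependent kinases or their cyclins. The CIP/KIP proteins p21 (CDKN1A), p27 (CDKN1B) and p57 (CDKN1C) bind cyclin-CDK complexes broadly, whereas the INK4 proteins p16 (CDKN2A), p15 (CDKN2B), p18 (CDKN2C) and p19 (CDKN2D) bind CDK4 and CDK6 and keep them from cyclin D. CDKN3 encodes KAP, a phosphatase that removes the activating phosphate from CDK2 and is made mostly by dividing cells. In AML p15 is often silenced by methylation, in some other leukemias the CDKN2A region is often deleted, and p21 is a classical product of the response to DNA damage.

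Some libraries stood apart from the rest or went against their labels. Total counts ran from 7351755 to 21362546, the MK-2206 libraries being the shallowest (7351755 and 10330720), with 6.68% and 18.37% mitochondrial counts against 1.32% to 3.05% elsewhere. FOXM1, the targeted gene, had 2554 and 2515 counts in control cells with DMSO and 923 and 1551 in FOXM1-KD cells with DMSO (log2 fold change -1.08, adjusted p = 0.0560), and 152 and 171 counts with MK-2206. Under AraC and venetoclax the FOXM1-KD difference was -0.56 (adjusted p = 0.0124, under 2-fold) and -1.20 (adjusted p = 0.0113). CD34, the defining marker of KG-1, had 12483 to 28951 counts in the 8 control libraries other than MK-2206, 7 and 18 counts with MK-2206 and 0 to 4 counts in the 6 libraries labelled FOXM1-KD. MPO, the myeloid granule enzyme, ran the other way, from 5 to 242 counts in those 8 libraries to 3888 and 3424 with MK-2206 and 28881 to 155753 in FOXM1-KD. Over 12 KG-1 and myeloid markers, of which 9 to 11 had at least 10 counts in any library, the summed level was 2490 to 3400 CPM (counts scaled to library size), 707 and 806 CPM, and 3190 to 12800 CPM in the same 3 sets. MPO alone made up much of the FOXM1-KD sums, with 94451 of 128912 counts in DMSO replicate 1, 35648 of 64938 in AraC replicate 1 and 155753 of 187589 in venetoclax replicate 1. Over 8 markers of other cell types the summed level was 87.5 to 175 CPM, 8.43 and 9.71 CPM, and 6.01 to 49.1 CPM. A set of 7 genes listed as a check on the line had at least 10 counts for all 7 in the same 8 control libraries, for 2 and 4 of them with MK-2206 and for 0 of them in FOXM1-KD. These genes alone cannot identify a cell line. Over 12583 genes the MK-2206 libraries correlated at 0.728 to 0.787 with the FOXM1-KD libraries and at 0.553 to 0.625 with the other control libraries (Pearson's r of log2(CPM + 1)). The effect of the drug or shRNA and a difference in the cells themselves therefore cannot be told apart in the comparisons of MK-2206 with DMSO and of FOXM1-KD with control. In control cells, STL427944 replicate 2 and venetoclax replicate 1 were more alike (r = 0.992) than either was to its own replicate (0.967 and 0.965), while STL427944 replicate 1 and venetoclax replicate 2 correlated with the DMSO libraries at 0.996 to 0.997 and 0.992 to 0.995. Whether labels were exchanged among these libraries was not tested, and the STL427944 and venetoclax values in control cells are given as labelled.

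A gene was called when edgeR's quasi-likelihood test gave at least a 2-fold change and an adjusted p under 0.1 over all genes tested. With MK-2206, 6 of the 8 CDK inhibitor genes were called, 4 higher and 2 lower, where 44.0% of all genes tested were called. In FOXM1-KD against control cells, 4 of 8 were called in DMSO (25.1% of all genes), 5 of 8 in AraC (29.3%) and 3 of 8 in venetoclax (24.3%). AraC against DMSO gave 2 of 7 in control cells (6.69% of all genes) and 2 of 8 in FOXM1-KD cells (11.6%), all higher. The response to AraC differed between FOXM1-KD and control cells for 2 of 8 (5.13%) and the response to venetoclax for 0 of 8 (0.743%; 0 at an unadjusted p under 0.05 and 0 by DESeq2). Venetoclax gave 0 of 7 in control cells (0% of all genes) and 0 of 8 in FOXM1-KD cells (2.09%), and STL427944 gave 0 of 7 (0%), with 1 member at an unadjusted p under 0.05 in each and 0 by DESeq2. The median log2 fold change of the tested members was 1.27 with MK-2206 beside 1.03 over all genes, -0.47 beside -0.03 in FOXM1-KD with DMSO, 0.51 beside -0.01 with AraC in control cells and 0.90 beside 0.03 with AraC in FOXM1-KD cells. In bulk RNA a smaller share of cells making a transcript and less transcript per cell cannot be told apart.

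**Figure D1:**
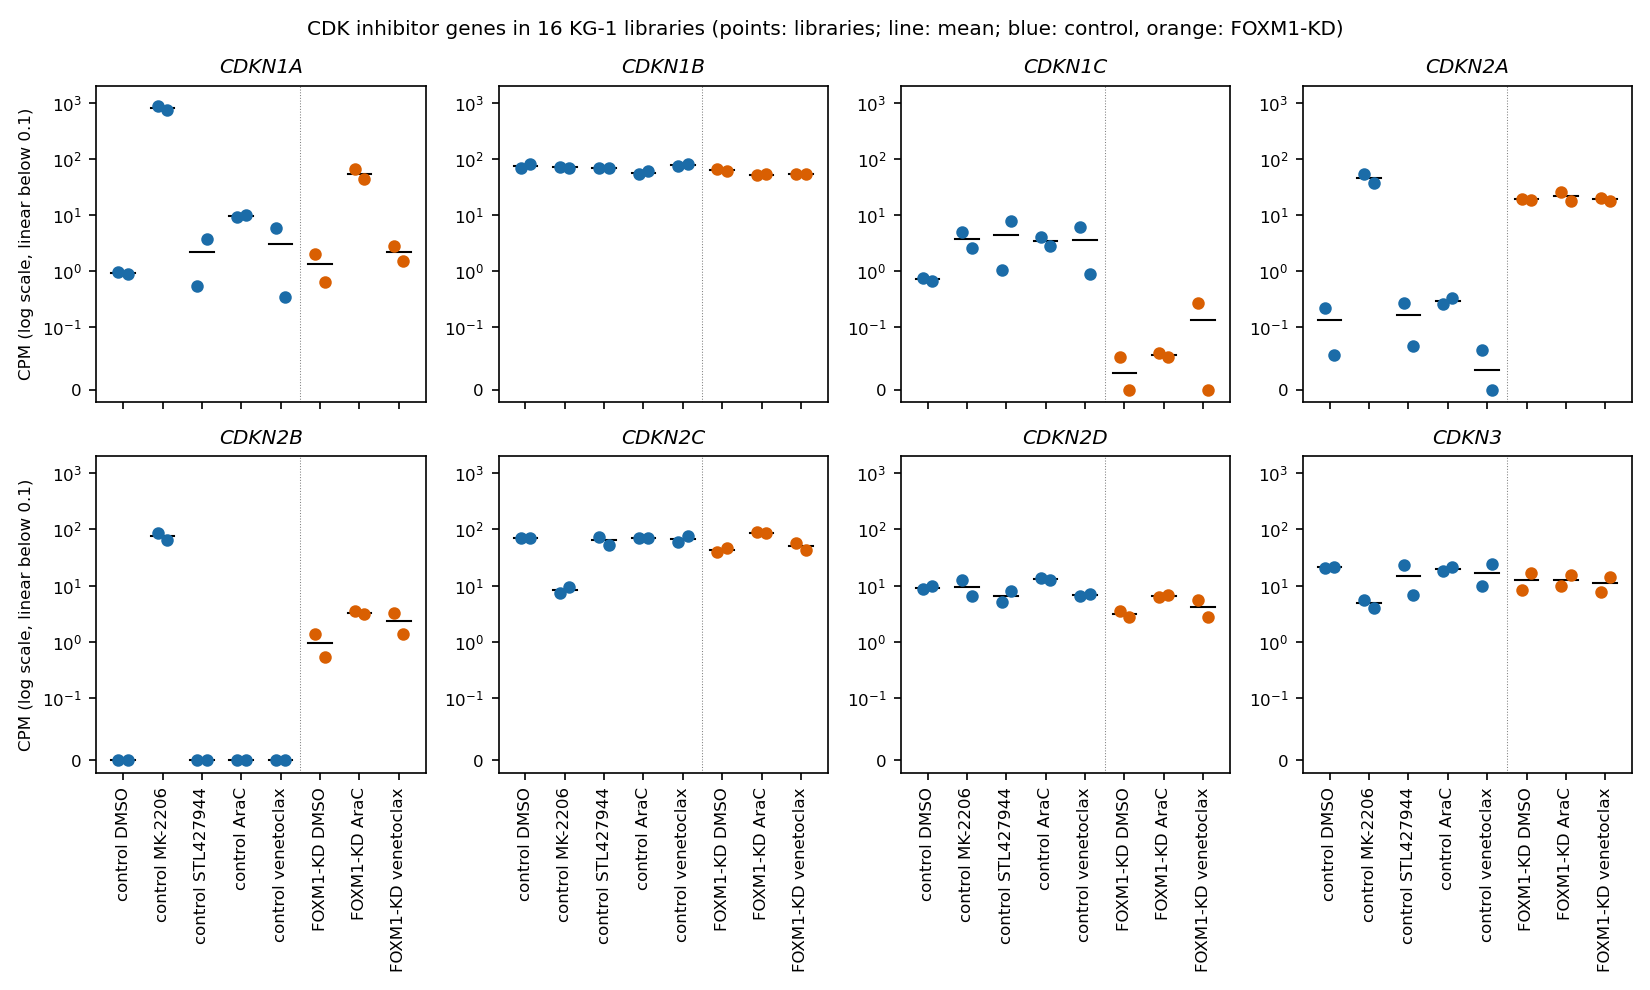
Level of each CDK inhibitor gene in CPM (vertical axis, log scale that is linear below 0.1) in the 8 conditions, with 1 point for each of 2 libraries and a line at their mean, control cells in blue and FOXM1-KD cells in orange. CDKN1A spans 0.342 to 873 CPM, CDKN1B stays between 51.1 and 81.7 CPM, and CDKN2B is at 0 in the 8 control libraries other than MK-2206.

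Which inhibitor ranked highest depended on the condition and on the gene length used. Per kb of merged exons, CDKN2C was the highest of the 8 genes in 14 libraries, with 38.9% to 49.9% of their summed CPM per kb. This order rests on merged lengths of 3018 bases for CDKN2C and 9255 for CDKN1B. In mean CPM, which does not correct for length, CDKN1B exceeded CDKN2C in every condition but those with AraC. Single libraries did not always keep this order. CDKN2C was the higher in replicate 1 of control DMSO (69.6 against 68.2 CPM), of STL427944 and of FOXM1-KD venetoclax, and CDKN1B in replicate 2 of each. The means were 74.6 against 70.5 in control cells with DMSO and 64.1 against 42.3 in FOXM1-KD cells with DMSO. With AraC they were 57.0 against 70.9 in control cells and 52.5 against 87.8 in FOXM1-KD cells. In the MK-2206 libraries CDKN1A was the highest at 291 and 252 CPM per kb, 83.3% and 85.1% of the sum, and CDKN2B came next at 21.2 and 16.3 CPM per kb. In FOXM1-KD cells with AraC, CDKN1A was second to CDKN2C, with 29.6% and 21.8% of the sum, against 0.450 CPM per kb on average in FOXM1-KD cells with DMSO. The summed level of the CIP/KIP genes was 8.66 ± 0.922 CPM per kb (SD, n = 2) in control cells with DMSO, 281 ± 28.9 with MK-2206, 7.38 ± 0.859 in FOXM1-KD cells with DMSO and 24.0 ± 5.02 in FOXM1-KD cells with AraC. The INK4 sum moved within a narrower range, from 21.3 ± 1.14 in FOXM1-KD cells with DMSO to 39.8 ± 2.27 with AraC and 39.5 ± 8.71 with MK-2206.

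**Figure D2:**
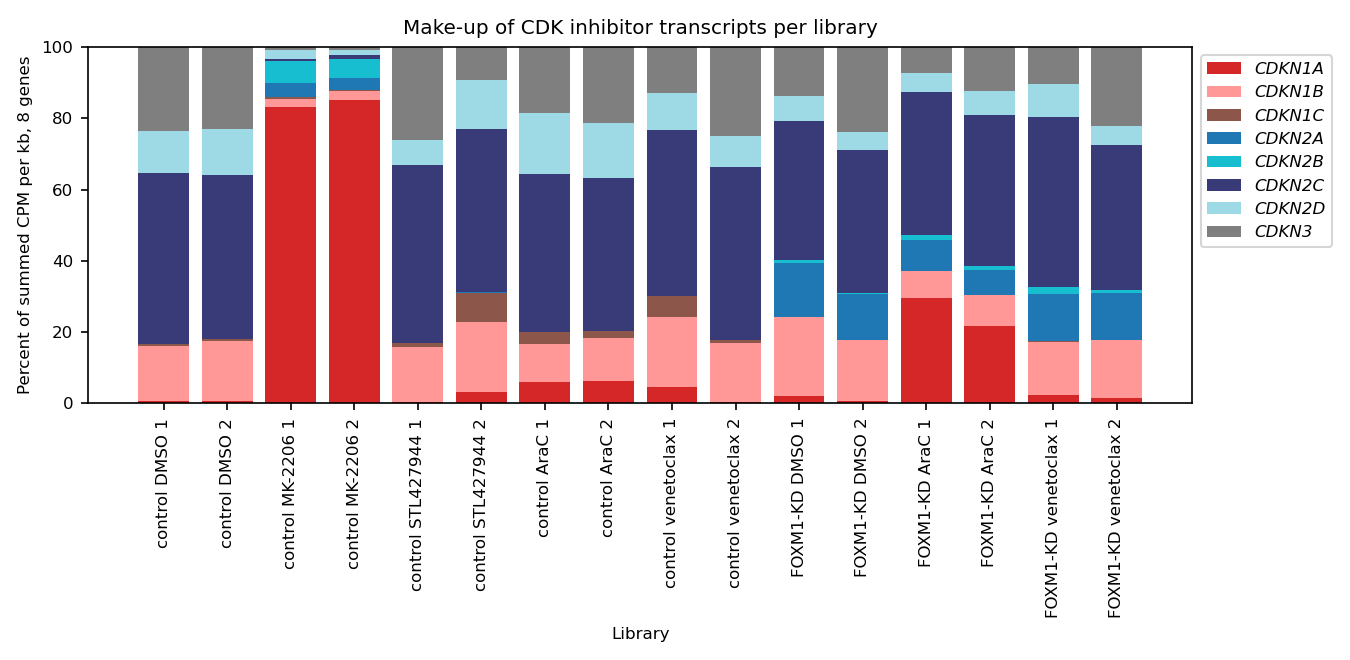
Percent of the summed CPM per kb of the 8 CDK inhibitor genes taken by each gene (vertical axis) in each of the 16 libraries (horizontal axis). CDKN2C takes 38.9% to 49.9% in 14 libraries, and CDKN1A takes 83.3% and 85.1% in the MK-2206 libraries. These shares depend on the merged exon lengths.

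CDKN1A (ENSG00000124762, GRCh38 chr6:36676460-36687337, plus strand) encodes p21, which inhibits CDK2 and CDK1 complexes and binds PCNA. Its mean level was lowest in control cells with DMSO and highest with MK-2206, and it is the member with the largest response to AraC. The 250 bases before its RefSeq start (GRCh38.p14, chr6:36678464-36678713, plus strand) are shown because this gene took most of the family's transcripts with MK-2206, with capitals at matches to the GC box GGGCGG, the recognition core of SP1-type factors, on either strand.
CDKN1A: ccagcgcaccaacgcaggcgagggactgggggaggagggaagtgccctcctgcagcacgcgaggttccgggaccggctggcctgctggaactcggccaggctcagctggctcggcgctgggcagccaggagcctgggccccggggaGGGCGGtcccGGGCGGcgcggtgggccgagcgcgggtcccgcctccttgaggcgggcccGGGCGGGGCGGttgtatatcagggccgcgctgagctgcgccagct
The window held 4 matches, of which 2 overlap by 1 base, and 42.6% of 35116 RefSeq promoter windows of this length held at least 1.

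CDKN1A had 18 and 16 counts in control cells with DMSO and 6113 and 6534 with MK-2206, that is 0.933 ± 0.0760 and 814 ± 83.4 CPM (SD, n = 2). Both MK-2206 libraries lay far above every other library, and CDKN1A rose by 9.82 on the log2 scale (SE 0.32, adjusted p = 2.29e-147). Set against the FOXM1-KD DMSO libraries, which the MK-2206 libraries resembled more closely, the difference was 9.26 (SE 0.39, adjusted p = 4.60e-73), an alternative added after the data were seen.

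With AraC, CDKN1A had 182 and 215 counts in control cells (9.81 ± 0.574 CPM) and 1115 and 828 counts in FOXM1-KD cells (54.7 ± 15.7 CPM). FOXM1-KD cells with DMSO had 39 and 12 counts (1.35 ± 1.01 CPM), a pair that encloses the control DMSO values. AraC raised CDKN1A by 3.37 on the log2 scale in control cells (SE 0.28, adjusted p = 3.51e-07) and by 5.26 in FOXM1-KD cells (SE 0.36, adjusted p = 1.30e-39). The rise was larger in FOXM1-KD cells by 1.98 (SE 0.46, adjusted p = 0.00140 for the interaction), and CDKN1A was 2.44 higher in FOXM1-KD than in control cells under AraC (SE 0.24, adjusted p = 1.36e-21). No call stood in DMSO (0.53, SE 0.64, adjusted p = 0.543), except that without FOXM1-KD DMSO replicate 2, the library with 12 counts, the difference was 1.13 (adjusted p = 0.0756) and without replicate 1 it was -0.57. With either AraC library left out, no gene of the table was called in the AraC comparisons, where CDKN1A had 3.43 and 3.33 in control cells (adjusted p = 0.135 and 0.174) and 4.95 and 5.52 in FOXM1-KD cells (adjusted p = 0.396 and 0.304). The interaction missed the threshold without control AraC replicate 1 (1.93, adjusted p = 0.257) or 2 (2.03, adjusted p = 0.305), without FOXM1-KD AraC replicate 1 (1.64, adjusted p = 0.270) and without FOXM1-KD DMSO replicate 2 (1.22, adjusted p = 0.115), and with edgeR's filterByExpr for low counts (1.96, adjusted p = 0.114). Without FOXM1-KD DMSO replicate 1 the interaction was 3.06 and the rise in FOXM1-KD cells 6.32, and without replicate 2 the rise was 4.65.

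In control cells treated with venetoclax or STL427944, the CDKN1A replicates disagreed. Venetoclax gave 91 and 7 counts and STL427944 gave 10 and 55 counts, the high value in each pair belonging to the libraries that resembled each other. The differences from DMSO were 1.73 (SE 1.05, adjusted p = 1.000) and 1.22 (SE 0.86, adjusted p = 0.929). Without venetoclax replicate 1 the difference was -1.44, and without STL427944 replicate 2 it was -0.80. Without STL427944 replicate 1, 1298 genes of the table were called, CDKN1A among them (2.05, adjusted p = 0.0874). FOXM1-KD against control cells under venetoclax gave -0.49 (adjusted p = 0.656), which became 2.63 (adjusted p = 0.0115) without control venetoclax replicate 1, -1.44 (adjusted p = 0.0730) without replicate 2 and 0.23 (adjusted p = 0.777) with a replicate block. From the highest mean down, the order was MK-2206, FOXM1-KD AraC and control AraC, whose library values did not overlap with each other or with the next condition, and then control venetoclax, FOXM1-KD venetoclax, STL427944, FOXM1-KD DMSO and control DMSO, whose neighbours all overlapped.

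CDKN1B (ENSG00000111276, chr12:12685498-12722369, plus strand) encodes p27, the inhibitor of cyclin E-CDK2 that keeps resting cells out of S phase and is controlled largely through its degradation. It was the steadiest of the CIP/KIP genes. Its counts were 1245 and 1475 in control cells with DMSO, 511 and 593 in the shallower MK-2206 libraries and 1274 and 1152 in FOXM1-KD cells with DMSO, or 74.6 ± 9.05, 70.8 ± 3.14 and 64.1 ± 4.69 CPM. No comparison called it. In the main fits the difference nearest to a call was AraC against DMSO in control cells, with -0.41 (SE 0.14, adjusted p = 0.0730), less than 2-fold. FOXM1-KD against control under venetoclax gave -0.55 (SE 0.39, adjusted p = 0.399). With a replicate block it was again -0.55 (adjusted p = 0.0268), also less than 2-fold. From control venetoclax (78.4 CPM) to FOXM1-KD AraC (52.5 CPM), neighbours overlapped in all but 2 places, between STL427944 and FOXM1-KD DMSO and between FOXM1-KD DMSO and control AraC.

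CDKN1C (ENSG00000129757, chr11:2883213-2885775, minus strand) encodes p57, an imprinted gene product that holds stem and progenitor cells in quiescence. It was low everywhere and close to 0 in the FOXM1-KD libraries. The libraries held 14 and 12 counts with DMSO, 35 and 22 with MK-2206, 80 and 58 with AraC, 20 and 114 with STL427944 and 97 and 18 with venetoclax in control cells, against 1 and 0, 1 and 1, and 4 and 0 in FOXM1-KD cells with DMSO, AraC and venetoclax. Every control library thus lay above every FOXM1-KD library, and in order of mean level control DMSO stood apart from the 4 overlapping drug conditions above it. In control cells CDKN1C rose by 2.24 on the log2 scale with AraC (SE 0.36, adjusted p = 0.000293) and by 2.44 with MK-2206 (SE 0.54, adjusted p = 2.04e-05), where the median of all genes was 1.03. With either AraC library left out, the AraC rise was 1.93 and 2.53 and no longer called (adjusted p = 0.135 and 0.174). Because the FOXM1-KD libraries held so few counts, the fall is given as a ratio of CPM with its 95% counting interval: 27-fold lower in DMSO (4.44 to 1110, adjusted p = 0.0260) and 61.4-fold lower in AraC (16.7 to 512, adjusted p = 2.77e-22). In venetoclax the fitted change was -4.69 (SE 0.88, adjusted p = 9.67e-08), and it was called with any library left out, at -2.70 without control venetoclax replicate 1, the library with 97 counts, -5.52 without replicate 2, and -8.96 and -3.66 without FOXM1-KD venetoclax replicate 1 and 2. The value of -8.96 was fitted with 0 counts in FOXM1-KD cells, so its size is not a measured change. The DMSO call was lost without control DMSO replicate 1 (-4.32, adjusted p = 0.141) or 2 (-4.54, adjusted p = 0.126). The pair of 114 and 97 counts again fell to STL427944 replicate 2 and venetoclax replicate 1, with differences from DMSO of 2.65 (adjusted p = 0.929) and 2.32 (adjusted p = 1.000). Without STL427944 replicate 1 the first became 3.49 (adjusted p = 0.0874). KCNQ1, the nearest protein-coding gene on the side of lower coordinates at 34108 bases, also went from 188 and 155 counts in control cells to 0 and 0 in FOXM1-KD cells with DMSO (adjusted p = 0.00378), and SLC22A18 on the other side, at 13946 bases, had 26 and 29 against 111 and 52 counts (1.52, adjusted p = 0.0765).

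The neighbouring INK4 genes CDKN2A and CDKN2B, 7602 bases apart on the minus strand of chromosome 9, were both higher with MK-2206 and in every FOXM1-KD condition. CDKN2A (ENSG00000147889, chr9:21967752-21995301) gives p16 and, from a distal first exon and another reading frame, p14ARF, which binds MDM2. The gene count adds both transcripts. CDKN2B (ENSG00000147883, chr9:22002903-22009305) encodes p15, a target of TGF-beta signalling and of repression by MYC. The 250 bases before the RefSeq starts are shown because the pair changed together (GRCh38.p14, minus strand, chr9:21995325-21995574 for the distal and chr9:21974858-21975107 for the proximal CDKN2A start, chr9:22009306-22009555 for CDKN2B), with capitals at GC box matches on either strand.
CDKN2A, distal start: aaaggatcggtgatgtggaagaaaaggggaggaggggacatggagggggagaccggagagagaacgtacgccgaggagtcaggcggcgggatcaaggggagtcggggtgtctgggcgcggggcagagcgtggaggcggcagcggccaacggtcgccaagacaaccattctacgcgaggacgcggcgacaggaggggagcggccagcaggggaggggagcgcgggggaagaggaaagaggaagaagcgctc
CDKN2A, proximal start: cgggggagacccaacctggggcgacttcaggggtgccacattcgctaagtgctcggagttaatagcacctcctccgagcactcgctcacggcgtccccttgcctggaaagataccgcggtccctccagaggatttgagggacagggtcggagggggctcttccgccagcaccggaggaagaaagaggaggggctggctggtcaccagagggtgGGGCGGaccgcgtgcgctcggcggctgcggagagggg
CDKN2B: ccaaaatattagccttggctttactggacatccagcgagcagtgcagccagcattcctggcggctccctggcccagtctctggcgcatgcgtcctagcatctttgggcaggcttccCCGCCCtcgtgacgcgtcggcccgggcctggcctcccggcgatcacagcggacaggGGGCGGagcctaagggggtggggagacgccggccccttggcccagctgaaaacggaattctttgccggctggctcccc
The distal CDKN2A window held 0 matches, the proximal window 1 and the CDKN2B window 2. None of the 3 held the E-box CACGTG (6.34% of all windows), the forkhead core GTAAACA (2.98%) or a TATA box TATAAA (10.7%), which says only that these letters were not in these windows.

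CDKN2A had 4 and 1 counts in control cells with DMSO, and between 0 and 7 counts in the 8 control libraries other than MK-2206. MK-2206 gave 372 and 320 counts (45.1 ± 11.4 CPM), and the FOXM1-KD libraries held 364 and 359 with DMSO (19.1 ± 0.227 CPM), 431 and 338 with AraC (21.6 ± 5.40 CPM) and 295 and 300 with venetoclax (19.0 ± 1.59 CPM). The 2 sets of libraries did not overlap. CDKN2A was 8.33 higher on the log2 scale with MK-2206 (SE 0.69, adjusted p = 9.98e-64), 7.06 higher in FOXM1-KD cells with DMSO (SE 0.58, adjusted p = 0.00194) and 6.11 higher with AraC (SE 0.47, adjusted p = 9.19e-60). With venetoclax the ratio was 683 (95% counting interval 122 to 27000, adjusted p = 3.46e-25). These calls held with any library left out, but the sizes rest on few control counts. Without control DMSO replicate 1 or 2 the fitted difference was 9.47 or 7.68 with MK-2206 and 8.29 or 6.41 in FOXM1-KD cells with DMSO. In venetoclax the fitted 9.07 became 11.36 or 8.03 without control venetoclax replicate 1 or 2. The value of 11.36 was fitted with 0 control counts, so its size is not a measured change. Within FOXM1-KD cells AraC gave 0.10 (SE 0.31, adjusted p = 0.865) and venetoclax 0.01 (SE 0.35, adjusted p = 0.992). Set against the FOXM1-KD DMSO libraries, MK-2206 was 1.26 higher (SE 0.37, adjusted p = 0.00358). In order of mean level, MK-2206 lay above the 3 overlapping FOXM1-KD conditions and these above the 4 other control conditions, which overlapped.

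CDKN2B had 0 counts in all 8 control libraries other than MK-2206, where 3 counts, the limit that a count of 0 allows, would be 0.143 to 0.208 CPM. It had 595 and 565 counts with MK-2206 (75.1 ± 13.9 CPM), 26 and 10 in FOXM1-KD cells with DMSO (0.951 ± 0.599 CPM), 59 and 58 with AraC (3.27 ± 0.302 CPM) and 47 and 23 with venetoclax (2.29 ± 1.30 CPM). Where CDKN2A differed by 1.26 on the log2 scale between MK-2206 and FOXM1-KD DMSO libraries, CDKN2B was 6.32 higher with MK-2206 (SE 0.44, adjusted p = 1.15e-36). Against control cells at the floor of 3 counts per library, its mean CPM was at least 456-fold higher with MK-2206 (adjusted p = 4.83e-85). By mean CPM the FOXM1-KD libraries were at least 5.78-fold higher in DMSO (adjusted p = 0.0469), at least 21.9-fold in AraC (adjusted p = 4.86e-25) and at least 13.5-fold in venetoclax (adjusted p = 2.48e-09). These bounds leave out the error of the higher mean, which in DMSO came from 26 and 10 counts. For that comparison edgeR's filterByExpr removed CDKN2B before testing. The DMSO call was lost without control DMSO replicate 1 or 2 (adjusted p = 0.122 and 0.124) or FOXM1-KD DMSO replicate 1 (adjusted p = 0.118). Within FOXM1-KD cells AraC raised CDKN2B by 1.70 (SE 0.46, adjusted p = 0.00287), a call lost without FOXM1-KD AraC replicate 1 (1.61, adjusted p = 0.496) or 2 (1.78, adjusted p = 0.378). Without FOXM1-KD DMSO replicate 1 that rise was 2.52. Venetoclax in FOXM1-KD cells gave 1.27 (SE 0.55, adjusted p = 0.470).

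The genes on either side of the locus showed other patterns. MTAP, 30101 bases from CDKN2A and often deleted with it in tumors, had 1845 and 1819 counts in control cells and 1821 and 1895 in FOXM1-KD cells with DMSO (-0.02, adjusted p = 0.862), and it fell by 2.61 on the log2 scale with MK-2206 (adjusted p = 9.12e-17). DMRTA1, 437519 bases beyond CDKN2B, had 7 to 27 counts in the 8 control libraries other than MK-2206 and 0 in the MK-2206 and FOXM1-KD libraries. The antisense transcript CDKN2B-AS1, which overlaps both genes on the other strand, was not analysed here. Another lncRNA over both genes on that strand, ENSG00000264545, had 0 or 1 counts in the 8 control libraries other than MK-2206, 4 and 5 with MK-2206, and 32 and 17, 26 and 29, and 12 and 11 in FOXM1-KD cells with DMSO, AraC and venetoclax. In the FOXM1-KD libraries with DMSO this was close to the 26 and 10 counts of CDKN2B. The strand setting of the counting is not given in the sources used here, so reads of sense and antisense transcripts cannot be told apart.

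CDKN2C (ENSG00000123080, chr1:50960745-50974634, plus strand) encodes p18, an inhibitor of CDK6 that restrains self-renewal of blood stem cells and is itself induced in late G1 by E2F. It had 1269 and 1300 counts in control cells with DMSO (70.5 ± 1.32 CPM) and 51 and 82 with MK-2206 (8.38 ± 1.55 CPM), the lowest libraries of the series. With MK-2206 it fell by 2.99 on the log2 scale (SE 0.31, adjusted p = 1.06e-19). FOXM1-KD cells held 733 and 871 counts with DMSO (42.3 ± 5.06 CPM), 1526 and 1626 with AraC (87.8 ± 3.13 CPM) and 829 and 723 with venetoclax (49.9 ± 9.52 CPM). In DMSO, FOXM1-KD against control gave -0.72 (SE 0.14, adjusted p = 0.0245), and AraC against DMSO within FOXM1-KD cells gave 0.98 (SE 0.27, adjusted p = 0.00575), both under the 2-fold limit. AraC in control cells gave -0.01 (SE 0.13, adjusted p = 0.972), and the response to AraC differed between FOXM1-KD and control cells by 1.07 (SE 0.29, adjusted p = 0.00703). The AraC value in FOXM1-KD cells passed the limit without FOXM1-KD DMSO replicate 2 (1.11, adjusted p = 0.0529), with scaling by total counts (1.14, adjusted p = 0.000445) and in a fit of all 16 libraries (1.05, adjusted p = 0.0153). The interaction missed its threshold in the fit of all 16 libraries (1.04, adjusted p = 0.490) and without control DMSO replicate 2 (1.05, adjusted p = 0.109), control AraC replicate 1 or 2 (1.09 and 1.06, adjusted p = 0.137 and 0.202) or FOXM1-KD DMSO replicate 1 (0.95, adjusted p = 0.0191). FOXM1-KD AraC stood above all other conditions and MK-2206 below all others without overlap, and the 6 conditions between them overlapped with their neighbours in order.

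CDKN2D (ENSG00000129355, chr19:10566460-10569059, minus strand) encodes p19, an INK4 protein that oscillates with the cell cycle. It was lower in FOXM1-KD cells than in control cells with DMSO and AraC. Control cells held 155 and 180 counts with DMSO and 266 and 268 with AraC (9.19 ± 0.986 and 13.2 ± 0.715 CPM), and FOXM1-KD cells 66 and 53 and 105 and 127 (3.14 ± 0.492 and 6.44 ± 0.348 CPM). The log2 difference of FOXM1-KD from control cells was -1.54 in DMSO (SE 0.21, adjusted p = 0.0115) and -1.08 in AraC (SE 0.25, adjusted p = 0.000101), the first call being lost without control DMSO replicate 2 (-1.43, adjusted p = 0.117). In venetoclax the difference was -0.72 (SE 0.53, adjusted p = 0.423). AraC against DMSO gave 0.51 in control cells (SE 0.18, adjusted p = 0.0755) and 0.96 in FOXM1-KD cells (SE 0.38, adjusted p = 0.0787), under 2-fold in both, though the second was 1.11 without FOXM1-KD DMSO replicate 1 (adjusted p = 0.0604) and 1.12 with total counts (adjusted p = 0.0431). MK-2206 gave 88 and 57 counts and 0.11 (SE 0.34, adjusted p = 0.782), and 1.63 (SE 0.48, adjusted p = 0.00347) when set against FOXM1-KD cells with DMSO. Library values separated control AraC, at the top, from MK-2206, control DMSO from control venetoclax, and FOXM1-KD AraC from the other FOXM1-KD conditions below it, while the remaining neighbours overlapped.

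CDKN3 (ENSG00000100526, chr14:54396849-54420218, plus strand), the phosphatase gene, had its highest mean in control cells with DMSO at 382 and 395 counts (21.3 ± 0.541 CPM) and lowest with MK-2206 at 39 and 35 counts (4.81 ± 1.08 CPM). It fell by 2.09 on the log2 scale with MK-2206 (SE 0.35, adjusted p = 1.27e-08). FOXM1-KD cells held 158 and 314 counts with DMSO and 166 and 286 with AraC, and the differences from control cells were -0.76 (SE 0.36, adjusted p = 0.206) and -0.69 (SE 0.24, adjusted p = 0.0130), under 2-fold. Without FOXM1-KD DMSO replicate 2 and without FOXM1-KD AraC replicate 2 these were -1.35 (adjusted p = 0.0227) and -1.04 (adjusted p = 0.00184). STL427944 gave 436 and 96 counts and venetoclax 152 and 492, so that here the same pair of libraries held the low values, and without STL427944 replicate 1 the difference from DMSO was -1.65 (adjusted p = 0.0874). Below control DMSO each condition overlapped with the next down to FOXM1-KD venetoclax, and MK-2206 alone lay apart. The 250 bases before the RefSeq start (GRCh38.p14, chr14:54396757-54397006, plus strand) are shown because CDKN3 alone, among members with a window, matched TTTGAA on either strand (here as its complement, in capitals), the core of the cell cycle homology region found in genes repressed outside G2 and mitosis; 13.3% of all windows held it.
CDKN3: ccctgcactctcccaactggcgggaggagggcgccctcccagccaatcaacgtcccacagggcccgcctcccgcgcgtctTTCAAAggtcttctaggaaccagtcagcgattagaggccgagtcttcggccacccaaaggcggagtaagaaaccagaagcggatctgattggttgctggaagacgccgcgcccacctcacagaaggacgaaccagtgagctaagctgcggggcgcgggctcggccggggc
RefSeq windows were found for 7 of the 8 members, in 10 entries.

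**Figure D3:**
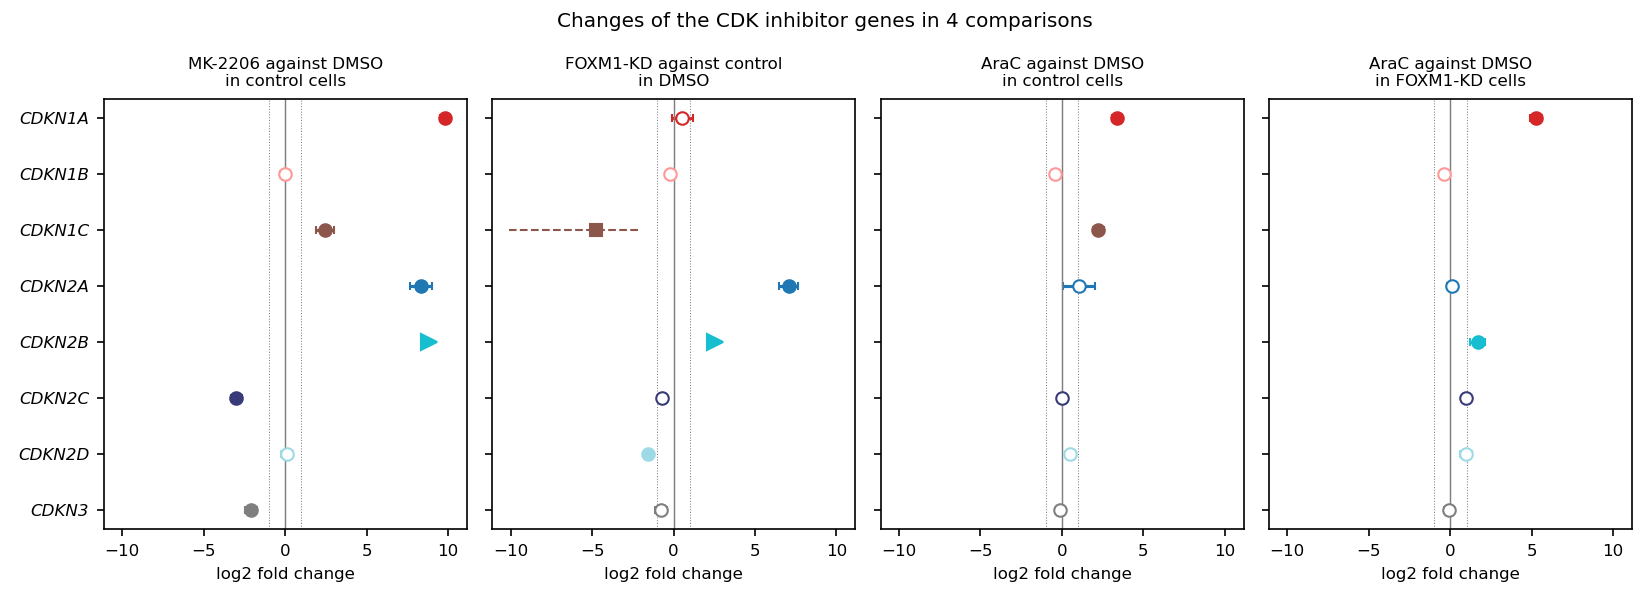
Log2 fold change (horizontal axis) of the 8 CDK inhibitor genes in 4 comparisons, each between 2 and 2 libraries; circles with bars are fitted values with their standard errors, filled where called, triangles are lower bounds for CDKN2B, the square with a dashed line is a ratio of CPM with its 95% counting interval, and dotted lines mark the 2-fold limits. CDKN1A lies at 9.82 with MK-2206, 0.53 in FOXM1-KD, and 3.37 and 5.26 with AraC.

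Genes around the CDK inhibitors were followed in 4 lists, some of which share genes. With MK-2206, 15 of 16 mitotic genes, all listed here because dividing cells make them, were called lower and 0 higher, among them TOP2A, which untangles DNA (fell by 3.92 on the log2 scale, adjusted p = 7.40e-46), and BIRC5, which encodes survivin (fell by 3.35, adjusted p = 8.86e-28). Of 17 cyclins, kinases and pocket proteins, 10 were lower and 3 higher. CDK1 fell by 3.24 (adjusted p = 1.19e-25) and CCND3, cyclin D3, by 2.73 (adjusted p = 1.97e-18), while CCNE1, cyclin E1, rose by 3.28 (adjusted p = 7.99e-26). Of 14 genes for turnover of p21 and p27, 7 were lower and 1 higher, and SKP2, which marks p27 for degradation, fell by 3.02 (adjusted p = 7.63e-21), while RNF123 rose by 1.05 (adjusted p = 0.000592). Of 26 factors known to bind or repress CDK inhibitor genes, 11 were higher and 4 lower, and CEBPA, a myeloid factor, rose by 4.92 (adjusted p = 5.89e-62), whereas BMI1, a polycomb repressor of CDKN2A, fell by 2.83 (adjusted p = 1.79e-19). The list medians were -1.95, -1.37, -0.99 and 0.75 in this order, beside 1.03 over all genes, of which 44.0% were called.

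In FOXM1-KD against control cells with DMSO, the calls in these lists went both ways. Of the mitotic genes 1 was higher and 2 lower of 16, and PLK1 rose by 1.11 (adjusted p = 0.0605), while NUSAP1, a spindle protein gene, fell by 1.16 (adjusted p = 0.0116). Of the cyclins, kinases and pocket proteins 4 were higher and 3 lower of 17, and CDK4, a kinase that INK4 proteins bind, rose by 1.13 (adjusted p = 0.00980), while CCNE2, cyclin E2, fell by 1.87 (adjusted p = 0.0123). Of the turnover genes COPS5 alone was called (fell by 1.25, adjusted p = 0.00445). Of the 26 factors 6 were higher and 6 lower, and CEBPA rose by 4.78 (adjusted p = 0.00110), while STAT5A fell by 6.04 (adjusted p = 0.00333). The list medians lay between -0.21 and 0.18, beside -0.03 over all genes, of which 25.1% were called.

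In FOXM1-KD against control cells under AraC, 3 cyclin and kinase genes were higher and 1 lower of 17, 7 factors higher and 7 lower of 26, 3 turnover genes higher and 1 lower of 14, and 4 mitotic genes higher and 1 lower of 16. Of all genes tested 29.3% were called, and the list medians lay between 0.03 and 0.26, beside 0.08 over all genes. Under venetoclax the counts were 4 and 1, 6 and 7, 1 and 0, and 3 and 0 in the same order. There 24.3% of all genes were called, and the list medians lay between -0.06 and 0.31, beside 0.11. STAT5A, a cytokine-activated factor, was lower in both (-3.60 with AraC, adjusted p = 3.35e-62, and -5.93 with venetoclax, adjusted p = 6.88e-39). PLK1 was higher in both (2.31, adjusted p = 6.25e-23, and 1.79, adjusted p = 4.65e-05). Venetoclax within FOXM1-KD cells gave 1, 4, 0 and 0 genes higher and 0 lower in these lists, where 2.09% of all genes were called. CCND1, cyclin D1, rose by 2.60 (adjusted p = 1.25e-09).

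With AraC, 1032 genes of the table were called higher and 495 lower in control cells (6.69% of all genes tested), and 2112 higher and 602 lower in FOXM1-KD cells (11.6%). Of the cyclins, kinases and pocket proteins 2 of 17 were higher in control cells, CCNE1 by 2.56 (adjusted p = 2.02e-08) and CCNE2 by 2.07 (adjusted p = 2.55e-08), and 5 of 17 in FOXM1-KD cells, CCNE2 by 2.38 (adjusted p = 2.19e-14) and CCNA1, cyclin A1, by 2.13 (adjusted p = 2.85e-09). Of the 26 factors 4 were higher and 1 lower in control cells, and TP73 rose by 4.20 (adjusted p = 2.02e-08). In FOXM1-KD cells 6 were higher and 1 lower, and EGR1 rose by 3.67 (adjusted p = 1.35e-21), while MYC, a repressor of CDKN1A and CDKN2B, fell by 1.48 (adjusted p = 1.18e-07). Of the 16 mitotic genes 2 were lower in control cells, with a log2 fold change of -1.77 for CDC20 (adjusted p = 9.76e-07) and -1.52 for PLK1 (adjusted p = 8.90e-06), and 0 were called in FOXM1-KD cells. Of the 14 turnover genes CDC20, which both lists hold, was the 1 called in control cells, and 0 were called in FOXM1-KD cells. All AraC calls of the table in either cell type were lost when either AraC library was left out. No gene of any list was called with venetoclax in control cells or with STL427944, where edgeR called 0 genes of the table (188 and 281 at an unadjusted p under 0.05, 0 and 1 called by DESeq2).

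**Figure D4:**
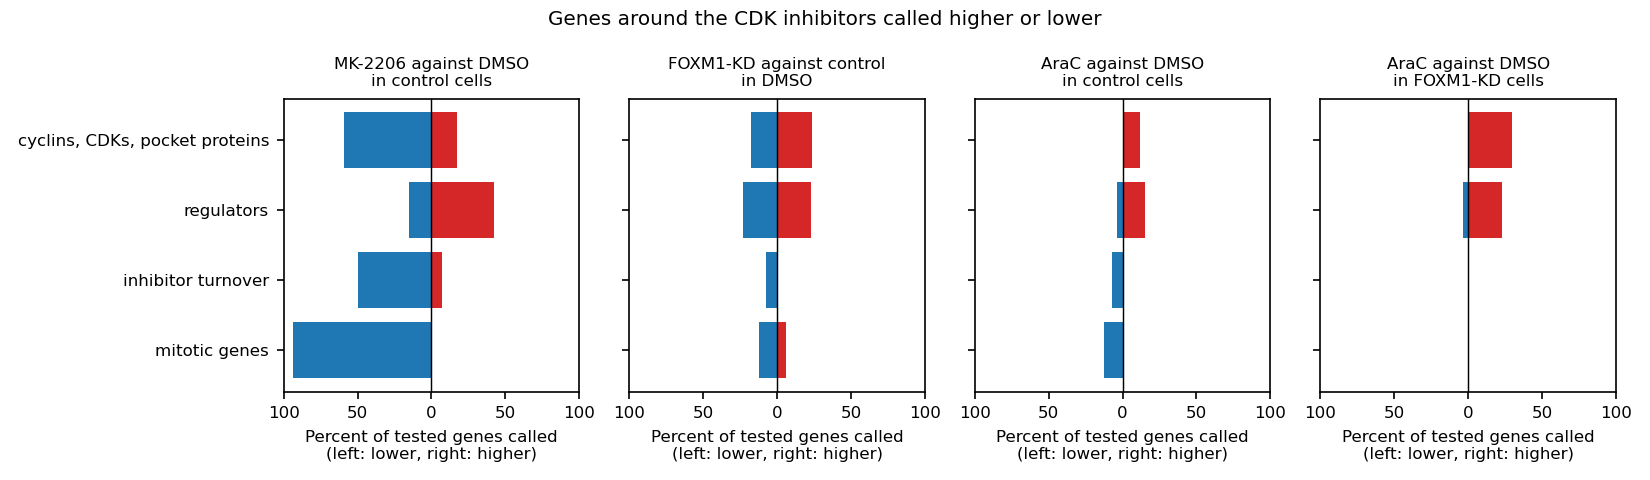
Percent of the tested genes of 4 lists (rows) called higher (red, to the right) or lower (blue, to the left) in 4 comparisons (panels). With MK-2206, 15 of 16 mitotic genes are lower, and with AraC in FOXM1-KD cells 5 of 17 cyclins, kinases and pocket proteins are higher and 0 lower. Of all genes tested, 44.0% were called with MK-2206 and 25.1% in FOXM1-KD with DMSO. With AraC the share was 6.69% in control and 11.6% in FOXM1-KD cells.

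Across the 16 libraries the members fell into patterns that mirror the few conditions behind them, described here by Pearson's r of log2(CPM + 1), the libraries sharing conditions in pairs. CDKN1A and CDKN2B, both highest with MK-2206, had r = 0.88, CDKN2A and CDKN2B 0.78, and CDKN2C and CDKN3, both lowest with MK-2206, 0.72. CDKN2B and CDKN2C had r = -0.87. CDKN1B had r between -0.45 and 0.39 with the other members. Among 12583 genes, the patterns most like CDKN1A were UBR4 (0.983), OASL (0.979) and SRC (0.979), and those most like CDKN2A were TLE1, SOBP and LRIG1 (0.998 each). Among the nearest to CDKN2B were SLIT2 and NR4A1 (0.994 each), to CDKN1C ICAM5 (0.959), TMEM145 (0.938) and TPSB2 (0.937), and to CDKN2C CD300LF (0.977), FANCD2 (0.975) and DHX8 (0.973). CDKN3 was most like AIF1 (0.940), GMNN (0.931), the replication inhibitor geminin, and RMDN1 (0.928), and CDKN2D most like SDC4 (0.915), HDAC11 (0.905) and SLC12A5 (0.893). For CDKN1B, whose level varied least, the closest were EPM2A (0.890), RPL7A (0.864) and TIGD1 (0.861).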

How the data were processed

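The authors isolated total RNA after treatment, removed ribosomal RNA, sequenced stranded libraries and aligned reads to hg38 with STAR, and featureCounts gave the raw gene counts they deposited (versions, strand setting and use of molecular identifiers are not given in the sources used here). Symbols, positions and merged exon lengths came from GENCODE release 44 (43177 of 43836 identifiers matched), promoter windows from RefSeq (GRCh38.p14). Each condition held 2 libraries, and p-values cover the spread between these cultures and no other source of variation. The test estimates the spread of each gene partly from all genes of the same fit. The sizes of p-values are therefore not to be compared between comparisons. Genes with at least 1 count were tested with edgeR 4.0.16 (R 4.3.3): TMM scaling, the quasi-likelihood test, a prior count of 0.125 and Benjamini-Hochberg adjustment over all genes tested, on the groups of each comparison. A call needed 2-fold and an adjusted p under 0.1. The scripts were tested on simulated data in which few genes changed. This does not cover the scaling with MK-2206, where 44.0% of all genes tested were called. Levels are CPM after TMM scaling of all 16 libraries. Ratios with 1 to 3 counts in a group carry exact 95% counting intervals, and bounds use 3 counts per library. Intervals cover counting error only. Bounds divide the mean CPM of the higher group by that floor and leave out the error of the higher group. The 8 members and the lists were chosen with earlier results of these data known. Named list genes are up to 2 in each direction by size of change, called and holding 10 or more counts in each library of the comparison. For each member the 3 protein-coding genes nearest in pattern and the nearest protein-coding neighbours could also be named. Same-numbered libraries of the MK-2206, AraC and venetoclax groups deviated together (r 0.298 to 0.471 over 14942 genes, 10 pairs of groups). Replicate 1 was also the shallower library in each of these groups, and the part of depth in r was not tested. The numbers were taken to pair the samples. FOXM1-KD against control in AraC and venetoclax was therefore refitted with a replicate block, which the main fits do not hold. DESeq2 1.42.0, other scaling, filtering, prior counts, thresholds and left-out libraries were the alternatives. Some named genes and 1 gene list are not reported here.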

Additional observations from a re-analysis of the deposited data

Results flagged for a closer look

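The response to AraC differed between FOXM1-KD and control cells for 2 of the CDK inhibitor genes, by the interaction term of edgeR's quasi-likelihood test. For CDKN1A the log2 fold change was larger in FOXM1-KD cells by 1.98 (SE 0.46, adjusted p = 0.00140), the levels going from 1.35 to 54.7 CPM in FOXM1-KD cells and from 0.933 to 9.81 CPM in control cells. This call was lost with filterByExpr (1.96, adjusted p = 0.114) and without either control AraC library, FOXM1-KD AraC replicate 1 or FOXM1-KD DMSO replicate 2, and the value ranged from 1.22 to 3.06 over the left-out libraries. For CDKN2C it was larger by 1.07 (SE 0.29, adjusted p = 0.00703), the levels going from 42.3 to 87.8 CPM and from 70.5 to 70.9 CPM. This call was lost in the fit of all 16 libraries (1.04, adjusted p = 0.490) and without control DMSO replicate 2, either control AraC library or FOXM1-KD DMSO replicate 1 (0.95 to 1.11 over the left-out libraries). The libraries labelled FOXM1-KD held 0 to 4 counts of CD34 against 13875 or more in the control libraries compared, and the part of this difference in the result was not tested.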

How the results depend on the processing

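DESeq2 made the same calls for the members to which it gave an adjusted p, and an adjusted p under 0.05, a prior count of 2 and DESeq2's size factors changed no call of a member. Scaling by total counts moved the median of all genes with MK-2206 from 1.03 to 0.82 and with AraC in FOXM1-KD cells from 0.03 to 0.20, where it gave 4 called members (CDKN2C and CDKN2D added). A fit of all 16 libraries called 2 members with venetoclax in control cells (CDKN1A and CDKN1C) and 1 with STL427944 (CDKN1C). It left 1 in the AraC interaction, without CDKN2C, and filterByExpr left 1, without CDKN1A. For FOXM1-KD in DMSO filterByExpr left 3 of the 4 called members, as it removed CDKN2B before testing. Leaving out single libraries gave 1 to 6 called members for FOXM1-KD in DMSO, 0 to 2 for AraC in control cells, 0 to 3 for AraC in FOXM1-KD cells, 0 to 3 for STL427944 and 0 to 2 for the AraC interaction. The fits of 2 against 1 library assume that the lone library varies like the rest, and the cause of these changes was not tested.

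Some values that were not called changed sign. With a replicate block, CDKN1A in FOXM1-KD against control under venetoclax went from -0.49 to 0.23, and the block changed no call of a member there or under AraC; DMSO and STL427944 libraries carry no numbers in the labels. Total counts gave -0.08 for CDKN2D with MK-2206 and -0.05 for CDKN2A with venetoclax in FOXM1-KD cells. CDKN2C with AraC in control cells was 0.01 by DESeq2, filterByExpr, DESeq2's size factors and the fit of all libraries, and 0.06 by total counts. Over the left-out libraries CDKN2D with MK-2206 ranged from -0.43 to 0.49, CDKN1A in FOXM1-KD from -0.57 to 1.13 in DMSO and from -1.44 to 2.63 in venetoclax, CDKN2C with AraC in control cells from -0.03 to 0.02, CDKN2A within FOXM1-KD cells from -0.17 to 0.33 with AraC and from -0.08 to 0.09 with venetoclax, CDKN1A in control cells from -1.44 to 2.67 with venetoclax and from -0.80 to 2.05 with STL427944, and CDKN3 with STL427944 from -1.65 to 0.12. The 509 alternative values cover only part of the members in each comparison and none in the venetoclax interaction. Of these 509 values, 450 kept direction and side of the threshold.

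With 2 libraries a group the spread is poorly known. At 3 counts or fewer over a group (CDKN1C in FOXM1-KD cells with DMSO and AraC, CDKN2A with venetoclax and CDKN2B in control cells) the text gives ratios with intervals or bounds for the fits of all libraries. Values with a library left out are fitted ones even where few or 0 counts remain in a group, and their sizes then depend on the prior count.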
